A study of Mus musculus with 28 samples.

Results

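Transcripts of 10 core circadian clock genes were followed in DC2 cells, an immortalized epithelial line, derived from mouse distal caput epididymis, during and after exposure to the stress hormone corticosterone. The genes were taken by symbol from the deposited expression table: Per1, Per2, Per3, Cry1, Cry2, Nr1d1, Nr1d2, Dbp, Bhlhe40 and Clock. All 10 were present among the 13128 genes with a symbol, and all 10 passed the filter on low values, which removed 0 genes. Confluent monolayers received medium with corticosterone at 500 ng/ml, carried in ethanol, or medium with 0.1% ethanol alone as vehicle. The medium was replaced on day 3, which ended the exposure, and again on day 6. Cells were collected on day 0 before either addition, on day 3 at the end of exposure, and on days 6 and 9 after 3 and 6 days of recovery. The day 0 libraries carry the vehicle label but had received neither ethanol nor hormone. Each of the 7 groups (vehicle on days 0, 3, 6 and 9, corticosterone on days 3, 6 and 9) had 4 libraries. All groups are the same line grown on collagen, so every result is for 1 cell line, and the labels do not say whether libraries of a group came from separate cultures. If they did not, the p-values measure only a technical spread. The labels give the day of collection but not the hour, and a single level per day holds neither the phase nor the amplitude of a rhythm.

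The circadian clock is a transcriptional feedback loop. CLOCK and its partner BMAL1, encoded by Arntl, bind E-box sequences and switch on the period genes (Per1, Per2, Per3) and cryptochrome genes (Cry1, Cry2), whose protein products return to the nucleus and repress CLOCK and BMAL1. The nuclear receptors REV-ERB alpha and beta, encoded by Nr1d1 and Nr1d2, repress Arntl through ROR elements, against the activating ROR receptors. DBP is an output activator that binds D-box sequences, and BHLHE40 (DEC1) is a repressor that binds E-boxes. Glucocorticoids are known to shift clocks in peripheral tissues, and Per1 is a well-known glucocorticoid-responsive gene.

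The deposited values are log2 CPM, in which a step of 1 is a doubling. The 10 genes lay between 3.87 and 8.13 log2 CPM in all 28 libraries and together held 0.0521% to 0.0930% of the CPM of a library. From the steps left in the low values, 1 read was worth 0.0207 to 0.0422 CPM in a library, far below the lowest level of any member, 14.6 CPM for Dbp. Corticosterone day 3 replicate 4 stood apart, with a root mean square deviation from its group mean of 0.390 log2 over all genes against 0.253 to 0.275 in the others of that group. Of 12 markers of epididymal principal cells, 3 were in the table, and of 6 simple epithelial markers 5 were. Proliferation markers (6 of 6 genes, among them Mki67 and Top2a) summed to between 711.9 and 806.5 CPM in vehicle on day 3 and between 320.4 and 373.7 with corticosterone. They summed to between 839.1 and 856.4 against between 316.0 and 398.4 on day 6. On day 9 the sums were 873.2 to 955.6 against 875.8 to 922.6. The treated sums were thus lower on days 3 and 6 and overlapped those of vehicle on day 9. Cd68, the 1 leukocyte marker of 6 in the table, summed to between 27.6 and 28.8 CPM against between 7.59 and 11.1 on day 3 and to between 48.7 and 57.1 against between 10.0 and 13.3 on day 6. On day 9 it was 87.1 to 108.0 against 44.9 to 49.9, lower with corticosterone on all 3 days. Other lists moved with the hormone as well. The 3 principal cell markers in the table summed to 262.4 to 284.5 CPM in vehicle against 318.4 to 341.0 on day 6. On day 9 their sums were 224.0 to 252.0 against 279.3 to 294.4, and on day 3 they overlapped. Smooth muscle markers (2 of 5) were at 1.25 to 1.88 against 2.14 to 4.24 CPM on day 6, and overlapped on days 3 and 9. Fibroblast markers (3 of 6 in the table) summed to 8.30 to 11.7 CPM in vehicle against 5.03 to 7.48 on day 3 and to 10.1 to 10.7 against 3.37 to 4.98 on day 6. Endothelial markers (2 of 4) were at 1.43 to 2.60 against 7.15 to 9.71 CPM on day 3 and at 1.69 to 2.24 against 5.82 to 12.5 on day 6. Simple epithelial markers were at 36.7 to 38.8 against 20.2 to 22.5 CPM on day 6, and overlapped on days 3 and 9. Fibroblast and endothelial sums overlapped between the arms on day 9. Genes within these lists did not all move as the sums did. From vehicle to corticosterone on day 6, mean log2 CPM of Kdr went from -2.49 to 3.05, and of Pecam1 from 0.75 to 0.66. Among fibroblast genes on day 3, Pdgfra went from -0.03 to 1.41, while Col1a1 and Col1a2 were lower. Among epithelial genes on day 6, Krt8 (0.37 to 1.49) and Epcam (-0.76 to -0.32) were higher, and Krt18, Krt19 and Cdh1 lower. Mitochondrial genes held 5.19% to 5.46% of CPM in vehicle against 6.59% to 7.44% on day 3, 5.40% to 5.81% against 8.16% to 9.16% on day 6 and 5.64% to 6.1% against 6.28% to 6.99% on day 9, higher with corticosterone on each day. The part of any of these in the results that follow was not tested. In bulk RNA, fewer cells of a type and less RNA per cell cannot be told apart.

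At the end of exposure the period and cryptochrome repressors except Per3 were higher with corticosterone, and the REV-ERB genes and Bhlhe40 were lower. Of the 10 genes, 8 passed the test on day 3, with 4 higher (Per1, Per2, Cry1, Cry2) and 4 lower (Nr1d1, Nr1d2, Bhlhe40, Clock). Of all genes tested 49.0% did so, 23.3% higher and 25.6% lower (limma, Benjamini-Hochberg adjusted p under 0.05). On day 6, after 3 days of recovery, 9 of 10 passed, 4 higher and 5 lower, beside 47.2% of all genes, 22.9% higher and 24.3% lower. On day 9, 5 of 10 passed, 0 higher and 5 lower, beside 28.5% of all genes, of which 14.1% were higher and 14.4% lower. Members were thus called in both directions on days 3 and 6, and downward alone on day 9. The medians of the 10 log2 fold changes were -0.07, -0.10 and -0.25 on days 3, 6 and 9, beside -0.01, 0.00 and 0.00 over all genes. In terms of separation, 7 of 10 members had 4 corticosterone libraries all above or all below the 4 vehicle libraries on day 3 (38.5% of all genes), 8 on day 6 (48.3%) and 5 on day 9 (32.9%).

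**Figure D1:**
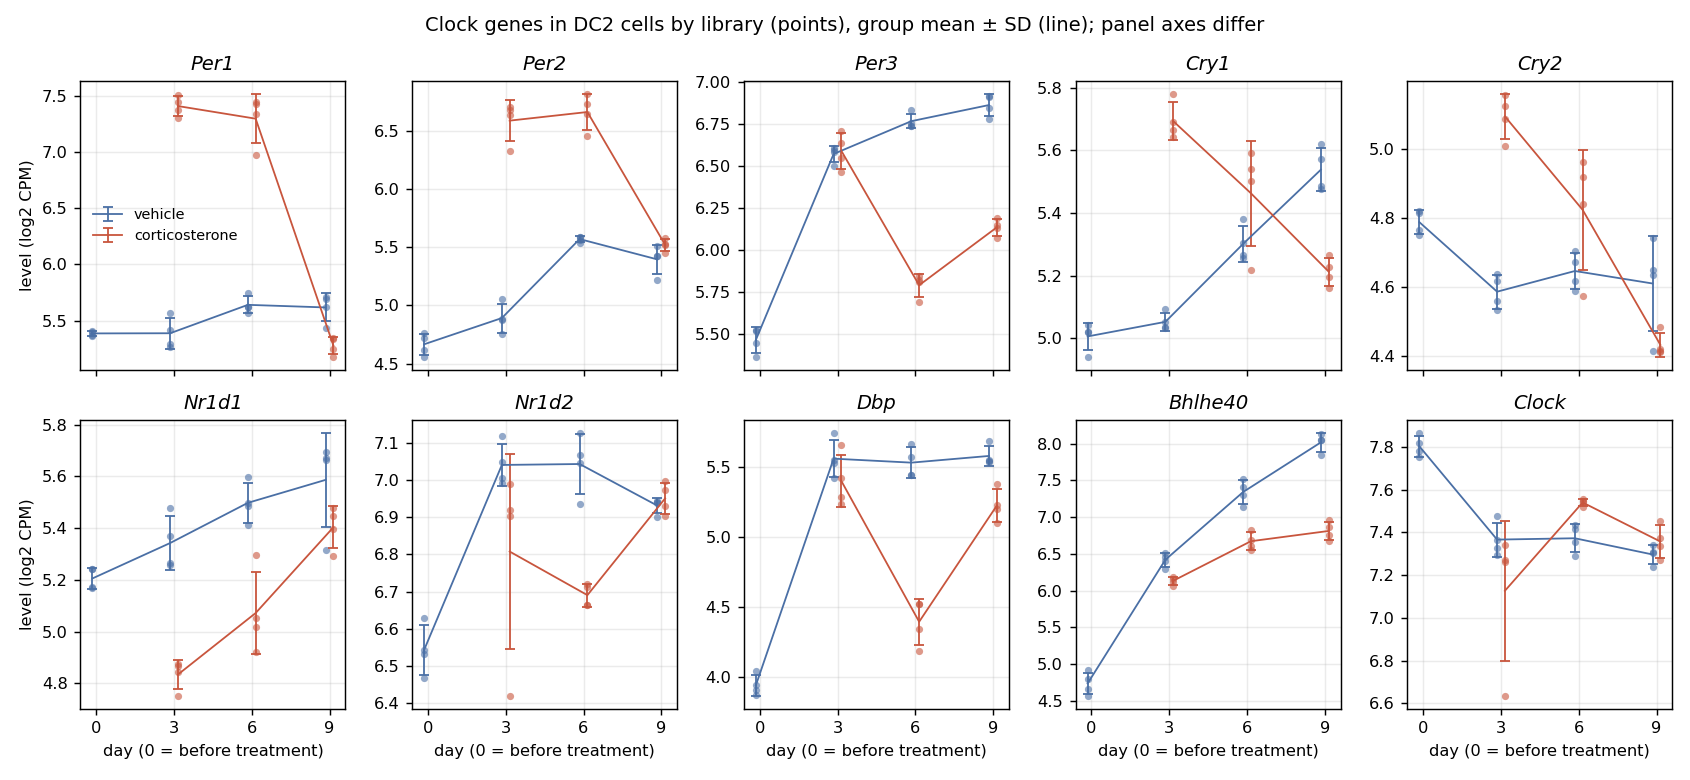
Level of each of the 10 clock genes in log2 CPM (vertical axes, which differ between panels) by day (horizontal axis) in vehicle (blue) and corticosterone (red); points are libraries and lines join group means with SD bars, n = 4 per group. Per1 and Per2 sit above vehicle on days 3 and 6, and on day 9 Per1 lies below vehicle and Per2 overlaps it. Per3 and Dbp overlap vehicle on day 3 and lie below it on day 6, and Bhlhe40 climbs from 4.74 to 8.02 in vehicle.

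Among the repressors of the loop, Per1 (chr11:69095217-69109960, plus strand, GRCm38) showed the largest rise. Its 4 corticosterone libraries on day 3 held 7.30, 7.38, 7.45 and 7.50 log2 CPM, and its vehicle libraries 5.27, 5.29, 5.42 and 5.57. On day 6 they held 6.98, 7.34, 7.43 and 7.44 against 5.57, 5.62, 5.62 and 5.75. All 8 treated libraries of those 2 days therefore lay more than a doubling above every vehicle library. The rise was 4.06-fold on day 3 (log2 2.02 ± 0.08 SE, adjusted p = 1.9e-16) and 3.15-fold on day 6 (log2 1.66 ± 0.08, adjusted p = 7.7e-15). Among 13128 genes the day 3 value was the 144th highest. On day 9 the order was the reverse, with 5.18, 5.25, 5.33 and 5.35 in treated against 5.44, 5.62, 5.69 and 5.71 in vehicle cells, groups that did not overlap (log2 -0.34 ± 0.08, adjusted p = 0.0028). That day 9 group was the lowest of the 7, below the cells of day 0 (5.36 to 5.41).

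Promoter sequence from RefSeq (GRCm38.p6) is shown for the members whose window held a searched motif, to set the known E-box and D-box of the loop beside the levels. Windows from 250 bases before to 50 bases after each annotated start were found for 8 of 10 members and searched on both strands. The 250 bases before 1 RefSeq start of Per1, chr11:69098699-69098948 on the plus strand, read as follows 5′ to 3′, with the E-box CACGTG in capitals, at position -166 from the start.
Per1: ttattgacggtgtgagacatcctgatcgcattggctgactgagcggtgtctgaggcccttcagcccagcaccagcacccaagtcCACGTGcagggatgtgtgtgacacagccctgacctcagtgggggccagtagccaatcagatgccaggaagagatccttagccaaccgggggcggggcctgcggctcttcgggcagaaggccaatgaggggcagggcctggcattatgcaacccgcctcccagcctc
An E-box was present in 7.15% of all 32851 windows. The match is a description of the letters and not evidence of a bound site.

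Per2 (chr1:91415982-91459324, minus strand) was higher with corticosterone on days 3 and 6, as Per1 was, by smaller differences. The treated libraries held 6.33, 6.64, 6.68 and 6.71 log2 CPM on day 3 and the vehicle libraries 4.75, 4.87, 4.89 and 5.05. On day 6 the values were 6.46, 6.65, 6.73 and 6.81 against 5.54, 5.56, 5.59 and 5.59, so the vehicle level had itself moved up. Per2 rose 3.24-fold on day 3 (log2 1.70 ± 0.08, adjusted p = 4.0e-15) and 2.13-fold on day 6 (log2 1.09 ± 0.08, adjusted p = 1.6e-11). On day 9 the groups overlapped, 5.45 to 5.58 against 5.22 to 5.51, and the difference of 0.13 did not pass the test (95% interval -0.04 to 0.29, adjusted p = 0.27). The group means of Per2 ran from corticosterone day 6 (6.66 ± 0.15 SD) and day 3 (6.59 ± 0.17), which overlapped, down to vehicle day 0 (4.67 ± 0.09).

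Per3 (chr4:151003652-151044665, minus strand) behaved unlike the other period genes. On day 3 the treated libraries held 6.47, 6.55, 6.64 and 6.71 and the vehicle libraries 6.5, 6.58, 6.6 and 6.61, which overlapped (log2 0.02 ± 0.05, 95% interval -0.09 to 0.13, adjusted p = 0.79). On day 6 the treated values were 5.69, 5.81, 5.82 and 5.84 against 6.74, 6.74, 6.76 and 6.83. Per3 therefore separated from vehicle on the first day of sampling after withdrawal, with each treated library lower than each vehicle library. It fell 1.97-fold on day 6 (log2 -0.98 ± 0.05, adjusted p = 2.0e-14) and remained 1.66-fold lower on day 9 (6.07 to 6.19 against 6.78 to 6.92, log2 -0.73 ± 0.05, adjusted p = 4.7e-11). The 250 bases before its start, chr4:151044666-151044915 on the minus strand, read 5′ to 3′ with 2 D-boxes TTATGTAA in capitals, at positions -205 and -158 from the start.
Per3: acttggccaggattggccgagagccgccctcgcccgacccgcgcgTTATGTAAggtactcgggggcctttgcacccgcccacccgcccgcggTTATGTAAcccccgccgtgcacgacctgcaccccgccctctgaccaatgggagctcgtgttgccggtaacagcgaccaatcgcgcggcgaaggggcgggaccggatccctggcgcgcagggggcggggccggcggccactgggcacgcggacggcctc
A D-box (TTATGTAA or TTACGTAA) was present in 1.06% of all windows, and among the 8 members with a window in that of Per3 alone.

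The divergence of the period genes was tested within libraries, by the log2 difference between 2 paralogs in each library (exact two-sided permutation test, 70 relabellings, smallest possible p = 0.0286, Benjamini-Hochberg over 15 tests of 5 gene pairs on 3 days). All 9 period differences and 1 of 6 others had that smallest p (adjusted p = 0.0429). The 3 period differences of a day are not separate results, since any 2 of them fix the last. The adjusted p rests on 10 of the 15 tests sharing the smallest p. The call among the 6 others therefore depends on the period tests being in the same family. Per1 minus Per3 on day 6 was 1.5 ± 0.25 (SD, n = 4) with corticosterone and -1.13 ± 0.09 in vehicle, a difference of 2.63. Per2 minus Per3 differed by 1.68, 2.07 and 0.85 on days 3, 6 and 9. Per1 minus Per2 was higher with corticosterone by 0.32 on day 3 and 0.56 on day 6 and lower by 0.46 on day 9 (-0.24 ± 0.11 against 0.22 ± 0.03). Thus the ratio of Per1 to Per2 lay above that of vehicle during exposure and early recovery and below it on day 9, without overlap on any of the 3 days.

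**Figure D2:**
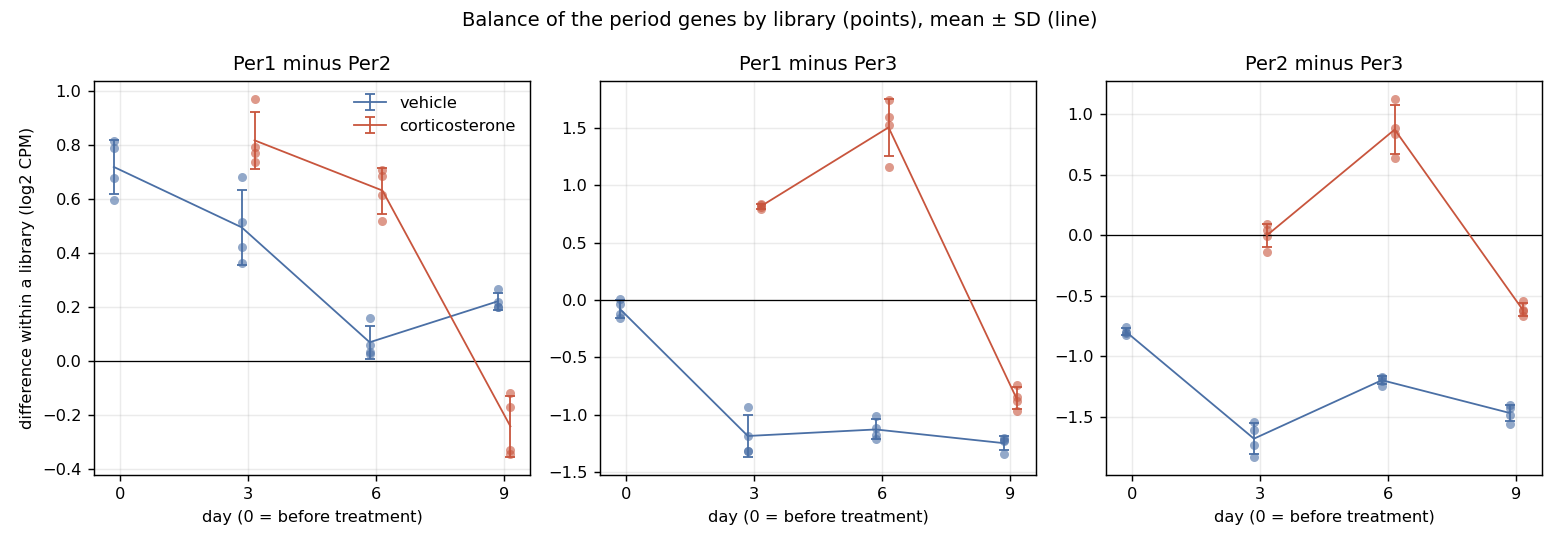
Within-library log2 difference between pairs of period genes (vertical axes, which differ between panels) by day (horizontal axis) in vehicle (blue) and corticosterone (red); points are libraries, lines join means with SD bars, n = 4. In the left panel the red points lie above the blue ones on days 3 and 6 and below them on day 9; in the other 2 panels they lie above on all 3 days, with the widest gap, 2.63 for Per1 minus Per3, on day 6.

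The cryptochromes, the partners of the period proteins in repression, showed a smaller rise that was over by day 9. Cry1 (chr10:85131700-85185064, minus strand) held 5.64, 5.66, 5.69 and 5.78 with corticosterone on day 3 and 5.03, 5.03, 5.05 and 5.09 in vehicle (log2 0.64 ± 0.06, adjusted p = 1.1e-09). Cry2 (chr2:92403646-92434043, minus strand) held 5.01, 5.09, 5.12 and 5.16 against 4.53, 4.56, 4.62 and 4.64 (log2 0.51 ± 0.07, adjusted p = 7.3e-07). Neither pair of groups overlapped on day 3. On day 6 both genes passed with small differences, Cry1 by 0.16 (adjusted p = 0.026) and Cry2 by 0.18 (adjusted p = 0.035), and both pairs of groups overlapped. The lowest treated library for Per1, Per2, Cry1 and Cry2 on day 6 was replicate 6 (5.22 for Cry1, with the others at 5.50 to 5.59), and without it the differences were 0.24 and 0.26. Without corticosterone replicate 1, 3 or 5 or vehicle replicate 4, each in turn, neither passed, and the same held for Cry1 without vehicle replicate 3 and for Cry2 without vehicle replicate 6 (adjusted p between 0.0648 and 0.147). On day 9 Cry1 was lower with corticosterone (5.16 to 5.27 against 5.48 to 5.62, log2 -0.33 ± 0.06, adjusted p = 1.4e-04). Cry2 was -0.18 (adjusted p = 0.053), and -0.24 (adjusted p = 0.0077) without vehicle replicate 6. The 2 cryptochromes differed in response on day 3 by 0.13 (exact permutation, adjusted p = 0.0429), with -0.02 on day 6 (adjusted p = 0.80) and -0.15 on day 9 (adjusted p = 0.264, and -0.07 without vehicle replicate 6). The 250 bases before the Cry1 start, chr10:85185055-85185304 on the minus strand, carry the E-box CACGTG (capitals) at position -60 from the start.
Cry1: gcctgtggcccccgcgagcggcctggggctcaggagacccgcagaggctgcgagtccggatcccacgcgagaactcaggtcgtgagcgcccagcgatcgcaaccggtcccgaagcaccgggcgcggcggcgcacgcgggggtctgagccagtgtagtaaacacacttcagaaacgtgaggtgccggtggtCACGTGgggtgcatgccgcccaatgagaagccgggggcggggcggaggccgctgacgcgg
Per1 and Cry1 were the 2 of 8 members with an E-box, which 2 of the members' 11 windows held. The other Per1 window, chr11:69099902-69100201, had none. The other motifs searched, the ROR element core (TAGGTCA or TGGGTCA, 6.45% of all windows), the glucocorticoid response element hexamer (AGAACA, 19.0%), its palindrome (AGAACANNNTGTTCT, 0.009%) and the cyclic AMP response element (TGACGTCA, 1.79%), had no match in the members' windows. No match says only that these letters are not in these windows.

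The REV-ERB genes, which form the second loop with Arntl, were lower on days 3 and 6. Nr1d1 (chr11:98767932-98775333, minus strand) held 4.75, 4.84, 4.87 and 4.87 with corticosterone on day 3 against 5.26, 5.27, 5.37 and 5.48 in vehicle (log2 -0.51 ± 0.08, adjusted p = 4.8e-06). On day 6 it held 4.92, 5.02, 5.05 and 5.30 against 5.41, 5.49, 5.50 and 5.60 (log2 -0.43 ± 0.08, adjusted p = 5.0e-05). The groups did not overlap on either day. On day 9 they overlapped through vehicle replicate 6 (5.32, with the others at 5.66 to 5.69), and the difference of -0.18 (adjusted p = 0.079) was -0.27 (adjusted p = 0.0048) without that library. Nr1d2 (chr14:18204054-18239127, minus strand) held 6.42, 6.90, 6.92 and 6.99 on day 3 against 6.99, 7.01, 7.05 and 7.12, where the value of 6.42 is replicate 4 (log2 -0.23 ± 0.08, adjusted p = 0.013, and -0.10, adjusted p = 0.048, without it). Its fall was larger than the spread on day 6, at 6.66, 6.66, 6.71 and 6.72 against 6.94, 7.05, 7.07 and 7.13 (log2 -0.35 ± 0.08, adjusted p = 3.6e-04). On day 9 Nr1d2 was 0.02 (adjusted p = 0.88). A difference in response between Nr1d1 and Nr1d2 was not detected on days 3, 6 or 9, with values of -0.27, -0.07 and -0.20 (exact permutation, adjusted p = 0.143, 0.52 and 0.143). Without corticosterone replicate 4, which holds the low Nr1d2 value, the day 3 difference was -0.41, given without a test.

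Dbp, the D-box activator (chr7:45705088-45710203, plus strand), was lowest against vehicle on day 6, as Per3 was. The treated libraries on day 3 held 5.24, 5.29, 5.42 and 5.66 and the vehicle libraries 5.42, 5.53, 5.55 and 5.74, which overlapped (log2 -0.16 ± 0.09, adjusted p = 0.14). Without corticosterone replicate 4, the value of 5.66, the difference was -0.25 (adjusted p = 0.018). On day 6 the treated values were 4.18, 4.34, 4.52 and 4.52 against 5.44, 5.45, 5.57 and 5.67, the widest gap of any member below vehicle on that day. Dbp fell 2.20-fold on day 6 (log2 -1.14 ± 0.09, adjusted p = 4.1e-11) and by 0.35 on the log2 scale on day 9 (5.10 to 5.38 against 5.54 to 5.69, adjusted p = 0.0035). The treated day 6 group, at 4.39 ± 0.16, lay nearer to the cells of day 0 (3.94 ± 0.07) than to any other group.

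Bhlhe40, the E-box repressor (chr6:108660629-108666925, plus strand), moved further from vehicle at each sampling. It held 6.06, 6.12, 6.16 and 6.19 with corticosterone on day 3 against 6.29, 6.4, 6.46 and 6.52. On day 6 it held 6.56, 6.61, 6.69 and 6.83 against 7.14, 7.30, 7.41 and 7.52, and on day 9 6.67, 6.75, 6.87 and 6.96 against 7.84, 8.05, 8.05 and 8.13. The groups were separate on all 3 days, and both arms lay above day 0 (4.57 to 4.91). The log2 differences were -0.29 ± 0.08 (adjusted p = 0.006), -0.67 ± 0.08 (adjusted p = 2.1e-07) and -1.20 ± 0.08 (adjusted p = 3.7e-11). The day 9 difference, 2.31-fold, was the 114th lowest of 13128 genes.

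Clock (chr5:76209868-76304792, minus strand), the activator of the loop, had the least stable hormone difference. It held 6.64, 7.26, 7.27 and 7.34 on day 3 against 7.29, 7.33, 7.37 and 7.48, and the value of 6.64 is again replicate 4. The difference of -0.24 ± 0.09 passed the test (adjusted p = 0.031). It was -0.08 (adjusted p = 0.17) without that library, and it also missed the threshold without vehicle replicate 3 (adjusted p = 0.099) or 6 (adjusted p = 0.055). On day 6 the treated libraries, 7.52 to 7.55, lay above the vehicle libraries, 7.29 to 7.43, without overlap, but the difference of 0.17 did not pass (adjusted p = 0.14). It passed when the 2 groups of that day were fitted alone (adjusted p = 0.0056) and with library weights (0.15, adjusted p = 0.0067). On day 9 it was 0.06 (adjusted p = 0.67).

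**Figure D3:**
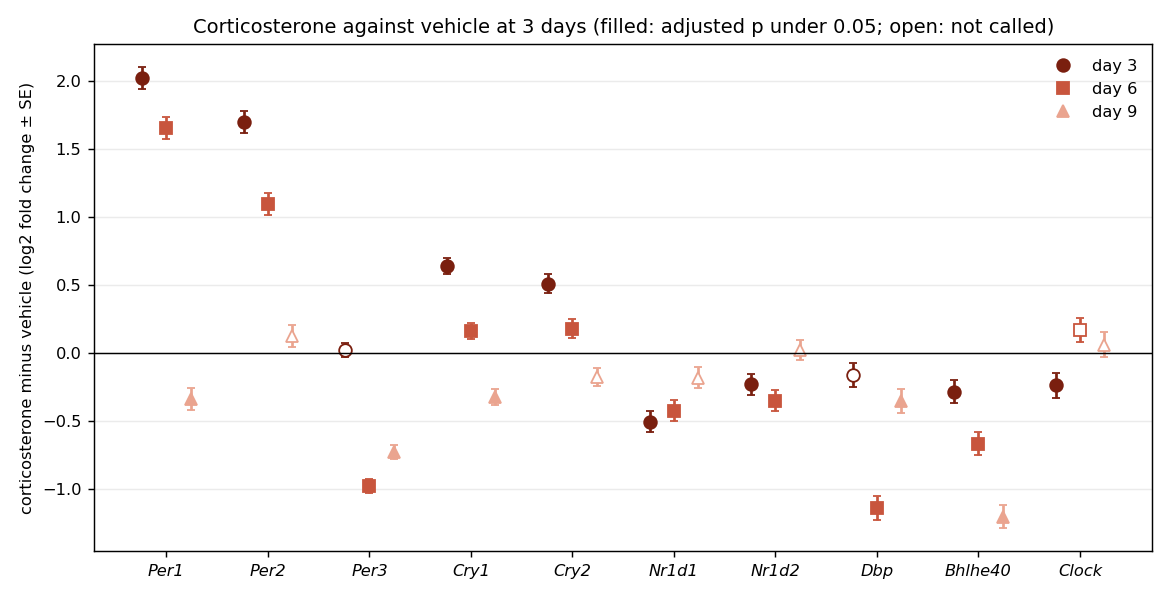
Log2 fold change of corticosterone over vehicle with SE (vertical axis) for the 10 clock genes (horizontal axis) on day 3 (dark circles), day 6 (squares) and day 9 (light triangles), from limma with 4 libraries per group; filled symbols passed adjusted p under 0.05 and open ones did not. The day 9 symbols lie at or below 0.13 for all 10 genes, and those of Per3 and Dbp are near 0 on day 3 and near -1 on day 6.

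Whether the response itself changed between days was tested as the difference of the differences. From day 3 to day 6 it changed in 8 of 10 members, beside 9.11% of all genes (4.90% downward, 4.21% upward), with 7 downward and 1 (Clock) upward. The largest changes were those of Per3 (-1.0 ± 0.07, adjusted p = 4.0e-10), Dbp (-0.98 ± 0.13, adjusted p = 5.3e-06), Per2 (-0.60 ± 0.11, adjusted p = 8.4e-04) and Cry1 (-0.48 ± 0.08, adjusted p = 3.4e-04). These 4 also passed at adjusted p under 0.01, which 4.5% of all genes did, and on leaving out any 1 library. The calls of the other 4 were near the threshold. Per1 (-0.36, adjusted p = 0.049) missed it on leaving out any of 12 of the 16 libraries, Bhlhe40 (-0.38, adjusted p = 0.040) and Clock (0.41, adjusted p = 0.046) each any of 11, and Cry2 (-0.33, adjusted p = 0.030) any of 5. Without corticosterone day 3 replicate 4, the library that stood apart, the Clock change was 0.24 (adjusted p = 0.011), and Nr1d2, at -0.12 with all libraries (adjusted p = 0.56), passed at -0.25 (adjusted p = 0.0058). From day 6 to day 9 the response changed in 8 of 10 members, beside 30.9% of all genes. Downward were Per1 (-1.99 ± 0.12, the 78th lowest of 13128 genes), Per2 (-0.97), Bhlhe40 (-0.54), Cry1 (-0.49) and Cry2 (-0.35). Upward, toward the vehicle level, were Dbp (0.78 ± 0.13, adjusted p = 2.3e-05), Nr1d2 (0.37) and Per3 (0.25). Nr1d1, at 0.24 (adjusted p = 0.097), passed without corticosterone day 6 replicate 3 (0.32, adjusted p = 0.021) and was 0.15 without vehicle day 9 replicate 6 (adjusted p = 0.24). The day 6 libraries enter both of these tests.

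These genes also differed between day 0 and the later vehicle cells, without hormone. The later vehicle cells differ from day 0 in time in culture, 0.1% ethanol and new medium, and the hour of collection is not given. These cannot be told apart here. Against day 0, 7 of 10 members passed on vehicle day 3, 5 higher and 2 lower, beside 69.2% of all genes (36.5% higher, 32.7% lower), a share near that of all genes. On day 6, 9 passed, 8 higher and 1 lower, beside 70.1% (36.4% higher, 33.7% lower). On day 9 all 10 passed, 8 higher and 2 lower, beside 70.4% (35.9% higher, 34.6% lower). The groups did not overlap in 7, 10 and 10 members on days 3, 6 and 9, beside 66.8%, 66.9% and 66.5% of all genes. The repressor Bhlhe40, the activator Dbp and Per3 moved furthest from day 0. Bhlhe40 rose by 1.68, 2.60 and 3.28 log2 on days 3, 6 and 9, Dbp by 1.62, 1.59 and 1.64, and Per3 by 1.11, 1.30 and 1.40. Dbp thus went from 3.87 to 4.04 log2 CPM on day 0 to 5.42 or above in every later vehicle library, and its vehicle groups of days 3, 6 and 9 overlapped. Per2 rose later (0.23, 0.90 and 0.73), and its day 3 call was lost without vehicle day 0 replicate 4 (adjusted p = 0.058) or vehicle day 3 replicate 6 (adjusted p = 0.077). Clock fell by 0.44, 0.43 and 0.51. Cry1 rose on days 6 and 9 (0.30 and 0.53), Nr1d1 on days 6 and 9 (0.29 and 0.38) and Nr1d2 on all 3 days (0.50, 0.50 and 0.39). Per1 was 0.00 on day 3 and rose by 0.25 and 0.23 on days 6 and 9, the last missing the threshold without vehicle day 9 replicate 4 (adjusted p = 0.052). Cry2 was -0.20, -0.14 and -0.18, of which the first and last passed, the last not without vehicle day 9 replicate 6 (-0.11, adjusted p = 0.13) or vehicle day 0 replicate 4 (adjusted p = 0.052). Over all 7 groups, those with corticosterone included, the range of group means was widest for Bhlhe40 (3.28 log2), Per1 (2.13) and Per2 (2.0). It was narrowest for Nr1d2 (0.50). Both ends of the Per1 range and the upper end of the Per2 range were corticosterone groups.

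Levels were compared between members per kilobase of median coding transcript (GENCODE annotation of GRCm38), as log2 CPM per kilobase. On day 0 the highest was Clock (4.90), then Nr1d2 (4.32), and the lowest Per2 (2.12). On vehicle day 9 the highest was Bhlhe40 (7.17), then Dbp (5.26), and the lowest again Per2 (2.85). At the end of exposure Bhlhe40 (5.29) and Per1 (5.21) were the highest and Nr1d1 (3.39) the lowest. These orders depend on the transcript chosen. With each gene's longest transcript, Clock (4.52) and Nr1d2 (4.32) stayed highest and Per2 lowest on day 0, but on vehicle day 9 Cry2 (2.62) was lowest and Nr1d2 (4.71) came after Bhlhe40 (6.38). At the end of exposure Per1 (5.18) was then highest, with Bhlhe40 (4.50) behind Nr1d2 (4.59) and Dbp (4.52), and Cry2 (3.1) lowest.

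The genes outside the loop with the most similar course were named by the smallest root mean square difference of centred log2 CPM over all 28 libraries, among 11180 genes with a mean of at least 1 log2 CPM. For Per1 they were Pim3 (0.21), Klf13 (0.24) and Micall1 (0.25), all closer than Per2 (0.37), beside a spread of Per1 itself of 0.87. For Per2 the closest was Cldn1 (0.16), for Per3 Wdr90 (0.15), for Dbp Kcnab3 (0.19) and for Bhlhe40 Oasl2 (0.22). The closest member to Per3 was Dbp and the closest to Dbp was Per3 (0.24 in both directions). For Clock it was Btaf1 (0.04), whose SD in the corticosterone day 3 group was as wide as that of Clock (0.33 for both). The measure is a description over libraries that share groups, with no test.

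Of 31 other genes of the clock and its regulators, 29 were in the table. On day 3, 15 of 29 passed (11 higher, 4 lower), on day 6 16 (11 higher, 5 lower) and on day 9 10 (4 higher, 6 lower), shares of 51.7%, 55.2% and 34.5% beside the 49.0%, 47.2% and 28.5% of all genes. Their median log2 fold changes were 0.06, 0.05 and -0.03. Among transcription factors that act on D-boxes, the repressor gene Nfil3 held 4.81, 4.83, 4.88 and 5.07 with corticosterone on day 3 against 3.26, 3.35, 3.44 and 3.48 in vehicle. Nfil3 rose by 1.52 on day 3 and 1.2 on day 6 and fell by 0.56 on day 9 (adjusted p = 4.3e-13, 3.1e-11 and 4.8e-05), the same order of directions as Per1. The activator genes of the DBP family differed, with Hlf higher on all 3 days (1.24, 0.57 and 0.54) and Tef higher on day 3 (0.28) and lower on days 6 and 9 (-0.39 and -0.20). The change in the Tef response from day 3 to day 6 was -0.68 ± 0.09 (adjusted p = 1.2e-05).

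In the ROR and REV-ERB loop, Arntl, the target of both and the partner of Clock, held 3.90 to 3.95 against 3.90 to 4.07 on day 3 (log2 -0.04, adjusted p = 0.60). On day 6 it held 4.58, 4.69, 4.71 and 4.72 against 4.11, 4.14, 4.28 and 4.30 (log2 0.47 ± 0.05, adjusted p = 4.1e-08), and on day 9 it was -0.21 (adjusted p = 0.0036). Arntl therefore rose on the day on which Per3 and Dbp fell, and its response changed by 0.50 from day 3 to day 6 (adjusted p = 4.5e-05). Rora, an activator at ROR elements, fell by 0.58 on day 6 and 0.76 on day 9 (adjusted p = 0.030 and 0.010). Its level was low, and on day 6 the groups overlapped (1.90 to 2.22 against 2.18 to 3.24 log2 CPM). The groups of Rorb, another ROR gene, overlapped on days 3, 6 and 9.

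Further repressors and modifiers moved in both directions. Ciart, a repressor of CLOCK and BMAL1, rose by 1.2 on day 3, was -0.12 on day 6 (adjusted p = 0.41) and fell by 0.63 on day 9, with a change of response from day 3 to day 6 of -1.32 ± 0.16. Bhlhe41, the paralog of Bhlhe40, rose on days 3 and 6 (0.39 and 0.22), when Bhlhe40 was lower, and was -0.09 on day 9 (adjusted p = 0.32). Usp2, a deubiquitinase gene, held 5.26 to 5.74 against 3.38 to 3.51 on day 3 and rose by 2.01 and 1.90 on days 3 and 6. Noct, a rhythmically expressed phosphatase gene, rose by 0.66, 1.13 and 0.19. Of the casein kinase genes whose products phosphorylate period proteins, Csnk1d and Csnk1a1 did not pass on any of the 3 days, and Csnk1e passed on day 6 (0.29, adjusted p = 0.0037). Timeless fell on days 3 and 6 (-0.34 and -0.55).

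**Figure D4:**
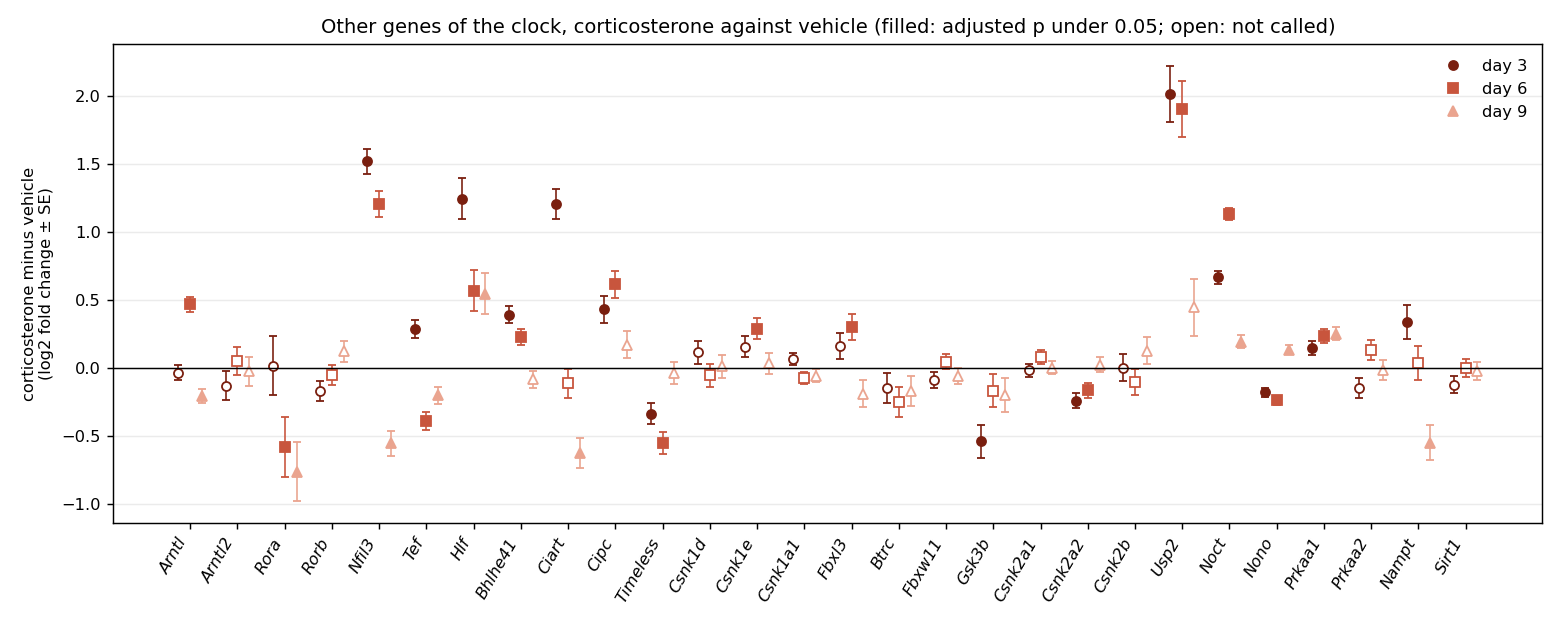
Log2 fold change of corticosterone over vehicle with SE (vertical axis) for 28 of the 29 other clock genes (horizontal axis) on day 3 (circles), day 6 (squares) and day 9 (triangles); filled symbols passed adjusted p under 0.05 in limma and open ones did not, 4 libraries per group. Usp2 and Nfil3 have the highest day 3 symbols, and Arntl is near 0 on day 3 and at 0.47 on day 6.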

How the data were processed

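RNA from 28 DC2 libraries was sequenced as stranded poly(A) libraries. The deposited values are log2 CPM made by the authors, per the file headers and labels. Per the submitters' processing notes, kallisto, edgeR 3.40.1, limma 3.54.0 and mm10 were used, with no stated role; the normalization and the constant added before the log are not given in the sources used here. Low values fell on whole-read steps in 14.0% to 18.6% of cases (tolerance 0.02 reads), so no count model was used. All 13128 genes with a symbol (log2 CPM above 0 in at least 4 libraries; 1 entry without a symbol, 0.0267% to 0.0698% of CPM, was left out) were fitted with limma 3.58.1 in R 4.3.3, with 1 mean per group, an intensity trend and 21 residual degrees of freedom. P-values were adjusted by Benjamini-Hochberg over all genes, with a threshold of 0.05. The fit was tested on simulated data with independent noise and changes planted in few genes of 1 contrast. That test does not cover outlying libraries, shared deviations or changes as widespread as those found here. No 2 libraries were closer than 0.282 log2 (root mean square). The members and gene lists were chosen with earlier results of these data known. All 10 members were named whatever their values, other clock genes by role, and similar genes by the distance rule. Alternatives were pseudocounts of 1 and 5, filters, scalings, library weights, moderation settings, fits on the compared groups alone, a threshold of 0.01, replicate blocks and leaving out each library. A few results are not reported here.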

Additional observations from a re-analysis of the deposited data

Results flagged for a closer look

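Across 70 combinations of a member and a group, 6 held a library far from the other 3 of its group, where chance marks about 1 in 20 groups. Corticosterone day 3 replicate 4 was low for Nr1d2 (6.42 log2 CPM, others 6.90 to 6.99) and Clock (6.64, others 7.26 to 7.34). Vehicle day 9 replicate 6 was low for Nr1d1 (5.32, others 5.66 to 5.69) and Nr1d2 (6.90, others at 6.94). Cry2 in corticosterone day 9 replicate 4 was high (4.48, others 4.41 to 4.42), as was Dbp in vehicle day 9 replicate 3 (5.69, others 5.54 to 5.55).

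The response to corticosterone differed between day 6 and day 3, by limma's test of the difference, in 8 members: Per1 (-0.36), Per2 (-0.60), Per3 (-1.0), Cry1 (-0.48), Cry2 (-0.33), Dbp (-0.98), Bhlhe40 (-0.38) and Clock (0.41), all on the log2 scale. Between day 9 and day 6 it differed in Per1 (-1.99), Per2 (-0.97), Per3 (0.25), Cry1 (-0.49), Cry2 (-0.35), Nr1d2 (0.37), Dbp (0.78) and Bhlhe40 (-0.54).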

How the results depend on the processing

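The number of members whose response changed from day 3 to day 6 was 8 in the reported fit. It was 4 when the compared groups were fitted alone (5.83% of all genes), 5 with no intensity trend (9.03%) and 4 at adjusted p under 0.01 (4.5%). It ran from 4 to 9 on leaving out 1 library. The stricter threshold uses the reported fit, where limma gave Per1, Cry2, Bhlhe40 and Clock adjusted p of 0.0494, 0.0299, 0.0404 and 0.0463. The fit of groups alone has fewer libraries to estimate the spread, but the cause of its lower count and of the other changes was not tested. The other member counts stayed within 1.5 times: 6 to 8 on day 3, 7 to 10 on day 6, 5 to 7 on day 9. Fitted with the compared groups alone, Nr1d2 on day 3 (adjusted p = 0.149), Clock on day 3 (0.222), Cry1 on day 6 (0.112) and Cry2 on day 6 (0.0984) lost their calls, and Clock on day 6 (0.0056), Nr1d1 on vehicle day 3 (0.0495) and Cry2 on vehicle day 6 (0.0197) gained one. On leaving out 1 library, values near 0 changed sign for Per1 on vehicle day 3 against day 0 (-0.0596 to 0.0408) and Per3 with corticosterone on day 3 (-0.0220 to 0.0600). All paralog differences kept their direction and side of the threshold over quantile normalization and pseudocounts. Their values without each library moved by less than the replicate spread. Cry1 minus Cry2 on day 6, near 0 and not called, changed sign on leaving out 1 library (-0.0533 to 0.0055 over all alternatives). Same-numbered libraries deviated together weakly, with a higher median than other pairs. Their median correlation was 0.08 over 22 pairs, 8 of them over 0.1. Pairs of different numbers had a median of -0.05 over 74 pairs, 10 of them over 0.1. The highest value was 0.167 for the same number and 0.243 for different numbers. Deviations from a group mean cancel within the group and libraries recur across pairs, so the medians are not independent. The reported fit did not take the numbers as pairs, so it leaves out any structure that they share. With a fixed replicate block the member counts were 8, 9 and 6 on days 3, 6 and 9 (with Cry2 added on day 9, adjusted p = 0.0261) and 7 for the day 6 against day 3 response. All members lay at or above 3.87 log2 CPM in every library, and the part of depth in their levels was not tested.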
